A study of Mus musculus with 16 samples.

Results

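Small non-coding RNA of common myeloid progenitors (CMP) was compared with that of granulocyte-monocyte progenitors (GMP). Both populations were sorted from bone marrow of mice that the labels call wild-type, with no treatment named. The members of the comparison are the 2 libraries labelled CMP and the 2 labelled GMP, 4 of the 16 libraries of a series that profiled 8 sorted progenitor and mature populations. Cells were sorted by flow cytometry on a lineage cocktail and on progenitor antigens that include c-Kit, Sca-1, CD34 and CD16/32. Total RNA was extracted with Trizol, made into libraries with a small RNA kit, cut from a gel at the length of snoRNAs and sequenced on an Illumina NovaSeq. Nothing in the labels ties the 2 libraries of each population to separate mice, so p values here reflect library-to-library spread that could be purely technical. In sorted bulk samples fewer cells that express an RNA and less of it per cell cannot be told apart. The surface proteins that define the 2 gates were not measured in these data.

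CMP are multipotent cells that give rise to GMP, which form granulocytes and monocytes, and to the megakaryocyte-erythroid progenitor (MEP). Small nucleolar RNAs (snoRNAs) mostly guide chemical marks on ribosomal RNA. The C/D class, named after its C and D sequence boxes, guides methylation of the ribose, and the H/ACA class guides the change of uridine to pseudouridine. Most snoRNAs are cut from introns of host genes, many of which encode ribosomal proteins or parts of the translation machinery, or have no known protein product.

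The CMP libraries held 8197458 and 20220596 counts, and the GMP libraries held 14164782 and 14520518. Of 1885 annotated intervals in the series, 1366 were listed in at least 1 of the 4 libraries and 749 had enough counts to be tested. The CMP libraries were close to each other: over 326 features that averaged 10 or more counts per 1000000 (CPM), the SD of the log2 ratio of library 1 to library 2 was 0.102. In the GMP libraries it was 0.526. By Spearman correlation over features, the nearest of the other 15 libraries to GMP library 1 was CLP library 1, from common lymphoid progenitors (rho 0.975, against 0.967 with GMP library 2), and to GMP library 2 it was CLP library 2 (rho 0.976). Most of the GMP difference lay in miRNAs, whose median log2 ratio of library 1 to library 2 was -1.08 over 74 miRNAs, against 0.05 for the other features. CPM are over library sizes scaled by the trimmed mean of M values (TMM).

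In CMP 73 features were higher than in GMP and 118 were lower, out of 749 tested. That is 9.75% and 15.8% of the tested features, or 25.5% together. Calls are from edgeR's quasi-likelihood test of CMP minus GMP with Benjamini-Hochberg adjustment, at an adjusted p under 0.05. The median log2 difference over all tested features was -0.08. Scaling by library totals moved that median by 0.11 and gave 99 higher and 95 lower, so the balance between directions depends on the scaling. The libraries of the populations did not overlap for 486 features, 64.9% of those tested, with both CMP values higher for 226 (30.2%) and lower for 260 (34.7%). Without CMP library 1 there were 115 calls, and without CMP library 2 there were 124, of which 115 and 123 were calls of the same direction in the full data. Without GMP library 1 there were 90 higher and 72 lower. A fit of the 4 libraries alone gave 65 higher and 48 lower, of which 88 were calls of the same direction in the full data.

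**Figure D1:**
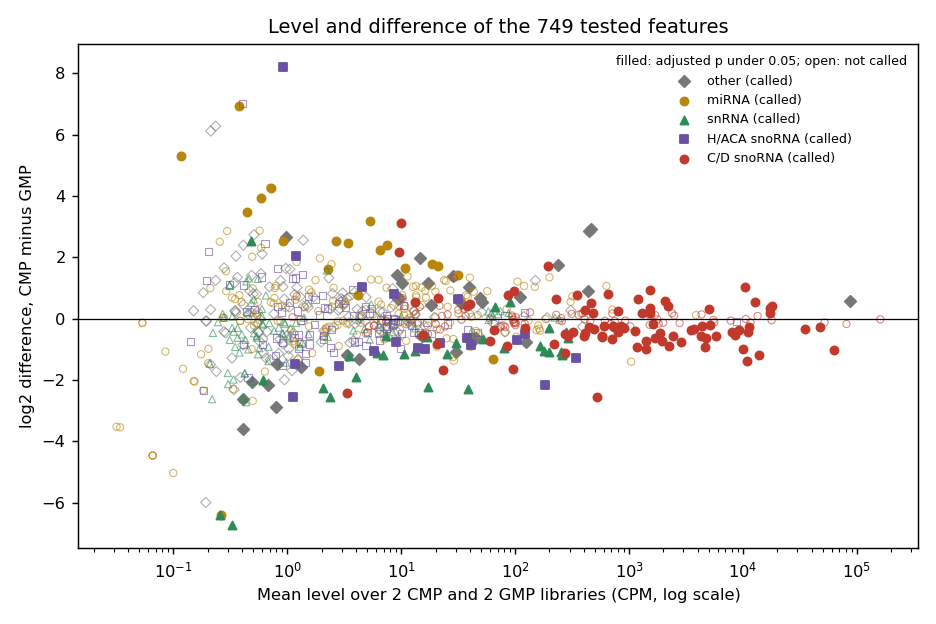
Each point is 1 of 749 tested features, with its mean level over 2 CMP and 2 GMP libraries in CPM on a log axis and its log2 difference, CMP minus GMP, on the vertical axis. Filled symbols are the 191 called features, and colours and shapes give the RNA class. C/D snoRNAs make up the abundant end, with called members above and below 0.

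The interval of the 45S pre-rRNA, the long transcript from which most ribosomal RNAs are cut, took a larger share of the CMP libraries. It also spans the mature RNAs cut from it, so its counts cannot tell precursor from mature rRNA. It held 11.9% and 12.3% of all counts in CMP and 6.57% and 8.22% in GMP. Its level was 101200 and 108600 CPM in CMP, against 63370 and 75700 CPM in GMP, a log2 difference of 0.59 ± 0.10 (SE, adjusted p = 0.00132). The GMP libraries differed from each other by less than either differed from the CMP libraries. C/D snoRNAs held 84.8% and 84.3% of counts in CMP and 90.9% and 88.1% in GMP. With the 45S interval taken out of the total, their share was 96.2% and 96.1% in CMP and 97.3% and 96.0% in GMP, and the populations overlapped. An exact permutation test of 2 libraries against 2 cannot give a p below 0.33, so the shares are described without a test.

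The 4 intervals within annotated 5S ribosomal RNA genes all rose in CMP, and 2 of them had the largest rises among features of at least 10 CPM. The annotation lists the intervals themselves as miRNAs, and they were taken as 5S by position, without a check of sequence. RNA polymerase III makes 5S rRNA, apart from the 45S transcript. Together these intervals held 2156 and 2257 CPM in CMP, against 469.4 and 597.9 CPM in GMP, 4.14 times as much on average. Gm47276 (chromosome 16, 41217777 to 41217836) had 799.3 and 845.6 CPM in CMP and 87.43 and 126.7 CPM in GMP, a log2 difference of 2.94 ± 0.15 (SE, adjusted p = 1.22e-07). Gm47281 had 763 and 797.8 CPM in CMP and 88.05 and 126.9 CPM in GMP (log2 difference 2.86). Gm47301 had 552.3 and 573 CPM in CMP and 279 and 327.6 CPM in GMP (log2 difference 0.89), and Gm47285, the scarcest, had a log2 difference of 1.39. Gm47276 and Gm47281 each have 71 near-identical annotated copies and Gm47285 has 69, so the reads cannot be placed at single genes. MEP held 1217 CPM and CLP held 512.9 CPM over the same intervals.

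Among C/D snoRNAs 29 of 164 tested rose in CMP and 58 fell, or 17.7% and 35.4%, against 9.75% and 15.8% of all tested features. Most C/D snoRNAs are abundant, with 154 averaging 10 CPM or more, and abundant features of all classes were called more often. Of 326 features averaging 10 CPM or more 49 rose and 91 fell, and of 159 averaging 100 CPM or more 27 rose and 64 fell. The median log2 difference of the C/D snoRNAs was -0.14 against -0.08 over all features. Under library totals 46 rose and 45 fell, and without GMP library 1 the counts were 47 and 37. Gm24148, in an intron of Ncl (chromosome 1, 86352008 to 86352087), had 303.9 and 295.3 CPM in CMP and 86.89 and 95.53 CPM in GMP. Its log2 difference was 1.72 ± 0.09 (SE, adjusted p = 1.45e-07), or 3.28-fold. Every CMP value was above both GMP values by far more than either pair differed. Ncl encodes nucleolin, an abundant nucleolar protein. The annotation also places a miRNA gene, mmu-mir-3535, over the same bases. Its interval had 361.2 and 373.1 CPM in CMP and 106.4 and 113.2 CPM in GMP, and the overlapping intervals may count the same reads. The annotated mature miR-3535 is identical to bases 1 to 26 of the snoRNA, which is why both are printed. In the snoRNA the C box and the D box are in capitals, and in the miRNA the seed (bases 2 to 8).
Gm24148: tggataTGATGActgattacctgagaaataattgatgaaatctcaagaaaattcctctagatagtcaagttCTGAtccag
miR-3535: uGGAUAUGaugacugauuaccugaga

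The next largest C/D rises at 100 CPM or more were Gm23212 in Gas5, Snord99 in Snhg12, Snord100 in Rps12 and Snord104. Snord99 (chromosome 4, 132310691 to 132310764) had 1956 and 2037 CPM in CMP and 1107 and 963.8 CPM in GMP, a log2 difference of 0.95 ± 0.07 (SE, adjusted p = 1.05e-06). Snord104 had 423.1 and 449.0 CPM in CMP and 249.4 and 264.5 CPM in GMP, a log2 difference of 0.76. The CMP and GMP libraries of each of these snoRNAs did not overlap. Just under the level of 10 CPM set for named features, and added after its values were seen, Snord123 in Snhg18 had 18.32 and 17.14 CPM in CMP and 1.907 and 2.157 CPM in GMP. Its log2 difference of 3.12 (adjusted p = 3.96e-07) was the largest of any C/D snoRNA. MEP averaged 10.25 CPM and CLP 6.167 CPM. Snord88c, also added, had 14.37 and 16.87 CPM in CMP and 2.996 and 3.933 CPM in GMP (log2 difference 2.17, adjusted p = 4.36e-05). The sequence of Snord123 (chromosome 15, minus strand, 32241853 to 32241923) has its boxes in capitals.
Snord123: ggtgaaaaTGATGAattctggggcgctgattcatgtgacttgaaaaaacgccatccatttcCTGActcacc

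The falls reached some of the most abundant snoRNAs. Snord2, in Eif4a2, which encodes an RNA helicase of translation initiation (chromosome 16, 23108953 to 23109021), had 40530 and 42480 CPM in CMP and 88260 and 78890 CPM in GMP. Its log2 difference was -1.01 ± 0.07 (SE, adjusted p = 7.68e-07). Gm25878 in Zfas1 had 8354 and 8510 CPM in CMP and 19670 and 18920 CPM in GMP, a log2 difference of -1.19 ± 0.05 (SE, adjusted p = 2.79e-08), the smallest standard error among the named features. MEP averaged 85540 CPM of Snord2 and CLP 77090 CPM, and 16820 and 17060 CPM of Gm25878, all nearer to GMP than to CMP. Snord17 in Snx5 had the lowest log2 difference of a named snoRNA, -2.54 ± 0.50 (SE, adjusted p = 0.00266). It had 156.6 and 153.3 CPM in CMP and 612.4 and 1185 CPM in GMP, so the GMP libraries differed widely from each other. Gm26457 in Eef1b2, which encodes a translation elongation factor subunit, had 167.8 and 178.4 CPM in CMP and 375.7 and 379.2 CPM in GMP, a log2 difference of -1.12 (adjusted p = 4.13e-06). Another 3 falls were added after their values were seen. Gm24299 in Taf1d had 6634 and 6597 CPM in CMP and 13700 and 12720 CPM in GMP (adjusted p = 3.96e-07), and Gm25970 in Prpf39 had 811.9 and 793.8 CPM in CMP and 1548 and 1499 CPM in GMP (log2 difference -0.92). Snord52 had 2154 and 2138 CPM in CMP and 3628 and 3577 CPM in GMP (log2 difference -0.75). In all 3 the libraries of a population lay close together and far from those of the other. The sequence of Gm25878 (chromosome 2, plus strand, 167063473 to 167063565) is shown with its boxes in capitals, as the abundant snoRNA with the firmest fall.
Gm25878: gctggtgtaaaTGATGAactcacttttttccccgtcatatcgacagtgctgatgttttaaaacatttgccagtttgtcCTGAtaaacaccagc

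Of the 3 most abundant features only the 45S interval was called. Gm26224, a C/D snoRNA in Gas5, had 157800 and 160000 CPM in CMP and 171600 and 151500 CPM in GMP and was not called (log2 difference -0.02, adjusted p = 0.793). Without GMP library 1 it was called higher, at a log2 difference of 0.23 (adjusted p = 0.00019), and under library totals at 0.10 (adjusted p = 0.0492). Snord49a had 74620 and 77370 CPM in CMP and 91490 and 80060 CPM in GMP (log2 difference -0.17, adjusted p = 0.0508). The 45S interval described above was the other of the 3.

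**Figure D2:**
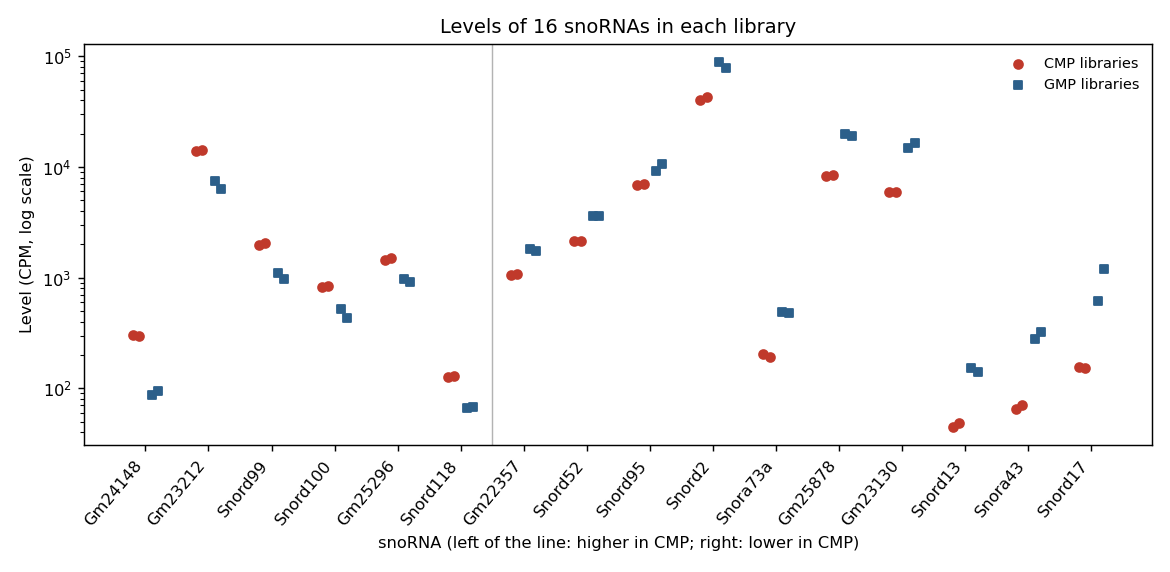
Levels of 16 snoRNAs in CPM on a log axis, with the 2 CMP libraries (red circles) left of the 2 GMP libraries (blue squares) for each. The 6 snoRNAs left of the grey line were higher in CMP and the others lower. The libraries overlap for none of the 16, and the widest GMP pair is Snord17, with 612.4 and 1185 CPM.

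SnoRNAs of the same host gene did not all move together. Of 53 host genes with at least 2 tested snoRNAs, 8 held both a called rise and a called fall, 9 held rises only, 23 held falls only and 13 held no call. Of the 8, 6 held both under TMM, relative log expression and library totals alike. How many hosts held rises only or falls only depends on the scaling. In Rpl13a, for example, 2 snoRNAs fell under TMM, while under library totals 1 rose and none fell. A ratio of 2 snoRNAs within a library does not depend on the scaling. In Rps12, which encodes a protein of the small ribosomal subunit, Snord100 had 822.7 and 846.8 CPM in CMP and 522.6 and 432.2 CPM in GMP, a log2 difference of 0.81 ± 0.09 (SE, adjusted p = 5.92e-05). Gm23130 in another intron of Rps12 had 5975 and 5979 CPM in CMP and 14930 and 16340 CPM in GMP, a log2 difference of -1.39 ± 0.06 (SE, adjusted p = 8.52e-08). The ratio of Snord100 to Gm23130 was 0.138 and 0.142 in CMP and 0.035 and 0.0264 in GMP. The remaining snoRNA of the gene, Snora33, had a log2 difference of -0.01 and was not called. Snord100 lies on chromosome 10 at 23785750 to 23785823 and Gm23130 at 23786470 to 23786543, both on the minus strand of GRCm38, and their boxes are in capitals.
Snord100: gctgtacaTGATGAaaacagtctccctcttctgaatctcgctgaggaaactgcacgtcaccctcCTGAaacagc
Gm23130: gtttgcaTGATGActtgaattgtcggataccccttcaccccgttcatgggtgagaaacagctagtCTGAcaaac

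Gas5 is a non-coding gene whose introns carry many C/D snoRNAs. Of 68 tested features of any class averaging 1000 CPM or more, 14 rose and 30 fell. Among the 10 tested Gas5 intervals 2 rose and 4 fell, or 20% and 40%, against 9.75% and 15.8% of all tested features. The falls came to 1 under relative log expression scaling and to 1 without GMP library 1. The median log2 difference was -0.11, and their summed level of 226400 and 229600 CPM in CMP lay within the 248900 and 220900 CPM of GMP. Gm23212 had 13950 and 14250 CPM in CMP and 7514 and 6312 CPM in GMP, a log2 difference of 1.03 ± 0.07 (SE, adjusted p = 1.27e-06). Gm22357, in an intron nearer the start of the gene, had 1052 and 1075 CPM in CMP and 1807 and 1744 CPM in GMP, a log2 difference of -0.74 ± 0.05 (SE, adjusted p = 9.06e-07). The ratio of Gm23212 to Gm22357 was 13.3 in both CMP libraries and 4.16 and 3.62 in the GMP libraries. Of the other members, Gm22489 rose by 0.59 on the log2 scale, and Gm25789, Mir5117, which has C and D boxes, and 1 of the 2 overlapping Snord80 intervals fell by 0.24 to 0.36. Gm23212 lies at 161036682 to 161036741 and Gm22357 at 161036057 to 161036139 on the plus strand of chromosome 1.
Gm23212: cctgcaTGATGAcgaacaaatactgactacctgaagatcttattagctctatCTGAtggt
Gm22357: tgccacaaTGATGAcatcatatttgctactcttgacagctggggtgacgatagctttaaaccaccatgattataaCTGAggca

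Rack1, which encodes a scaffold protein of the small ribosomal subunit, carried a pair of similar snoRNAs that went opposite ways. Gm25296 had 1448 and 1499 CPM in CMP and 977.2 and 906.9 CPM in GMP, a log2 difference of 0.65 ± 0.07 (SE, adjusted p = 1.93e-05). Snord95 had 6903 and 7014 CPM in CMP and 9276 and 10680 CPM in GMP, a log2 difference of -0.52 ± 0.09 (SE, adjusted p = 0.00163). Aligned from their 3′ ends the 2 differ at 5 of 67 bases and share the last 34, so short reads from that end could have been counted at either. Snord96a of the same gene was not called, at 0.14. Gm25296 lies at 48800866 to 48800932 and Snord95 at 48803139 to 48803206 on the plus strand of chromosome 11.
Gm25296: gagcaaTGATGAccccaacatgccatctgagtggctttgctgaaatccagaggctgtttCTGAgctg
Snord95: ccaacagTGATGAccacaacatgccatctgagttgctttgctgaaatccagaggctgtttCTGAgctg

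Other hosts held calls mainly in 1 direction. Their counts stand beside 9.75% of all tested features that rose and 15.8% that fell. Abundant features were called more often. Of 159 averaging 100 CPM or more 27 rose and 64 fell, and of 68 averaging 1000 CPM or more 14 rose and 30 fell. In Nop56, which encodes a core protein of C/D snoRNA particles, 3 of 5 rose and none fell (median log2 difference 0.31). Snord57 had 5492 and 5680 CPM in CMP and 4487 and 4554 CPM in GMP. In Nop58, which encodes its partner protein, 4 of 4 fell, by 0.30 to 1.66 on the log2 scale, although 2 of them, Gm26293 and Snord11, lost the call under both other scalings. Gm26287, the scarcest, had 10.83 and 11.31 CPM in CMP and 36.09 and 34.13 CPM in GMP, and Snord70 had 162.2 and 159.1 CPM in CMP and 284.8 and 279.6 CPM in GMP. In Zfas1 3 of 3 fell, and Snord12 lost its call under relative log expression scaling. In the non-coding gene Snhg1 5 of 8 fell and 2 rose, with a median of -0.43. The falls there were -0.42 to -0.60, while Gm25894 and Gm25855 rose by 0.18 and 0.19 on the log2 scale, and both lost the call under relative log expression. Gm25894 had 18290 and 18560 CPM in CMP and 16360 and 16070 CPM in GMP. In Eif4a2 3 of 5 fell and none rose (median -0.62), with Snord2 the abundant one. Among 52 tested snoRNAs of ribosomal protein genes other than Rpl13a, 3 rose and 22 fell, or 5.77% and 42.3%, against 9.75% and 15.8% of all tested features, with a median of -0.19. The falls came to 14 under relative log expression, and without GMP library 1 there were 7 rises and 12 falls. The rises were Snord100, Snord21 in Rpl5 and Gm26202 in Rpl17, and Snord21 had 15060 and 15300 CPM in CMP and 10680 and 9958 CPM in GMP. Falls beyond 0.8 on the log2 scale among members over 100 CPM were Gm23130, Gm22455 and Gm23344 in Rpl4 and Gm25091 in Rpl21. Gm25091 had 3193 and 3237 CPM in CMP and 5955 and 6222 CPM in GMP.

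**Figure D3:**
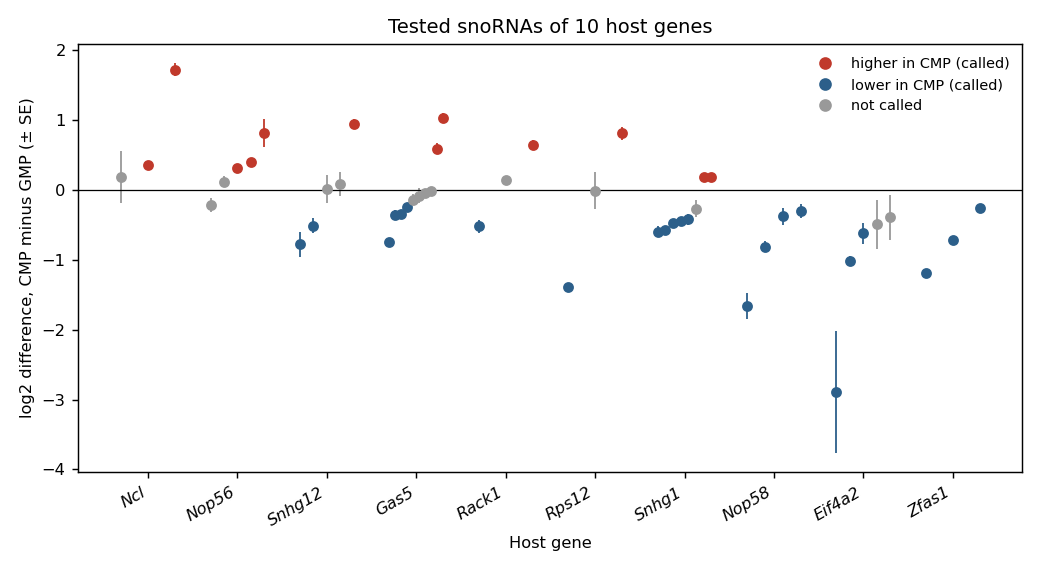
Log2 differences, CMP minus GMP, of the tested snoRNAs of 10 host genes, with bars of 1 SE. Red points were called higher in CMP, blue points lower, and grey points were not called. Red and blue points stand side by side within Snhg12, Gas5, Rack1, Rps12 and Snhg1, while Nop58 and Zfas1 hold blue points alone.

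Some snoRNAs act in the cutting of pre-rRNA. Of 20 tested intervals on a list of rRNA-processing snoRNAs, which also holds U13, 1 rose and 5 fell. That is 5% and 25%, against 9.75% and 15.8% of all tested features. The median log2 difference over the list was -0.20. Many of the 20 intervals are copies of the U3 snoRNA, and the rise and the 5 falls all lay outside them. The shares and the median therefore partly count copies of 1 RNA. Snord118, the U8 snoRNA needed for the large subunit rRNAs, had 125.6 and 128.9 CPM in CMP and 66.19 and 67.87 CPM in GMP, a log2 difference of 0.92 ± 0.09 (SE, adjusted p = 8.74e-06). Snord13, the U13 snoRNA, which takes part in acetylation of the small subunit rRNA, had 44.77 and 48.54 CPM in CMP and 151.7 and 141.7 CPM in GMP, a log2 difference of -1.65 ± 0.13 (SE, adjusted p = 1.77e-06). Snora73a, a copy of the U17 snoRNA in Snhg3, had 205.3 and 192.3 CPM in CMP and 485.5 and 478.4 CPM in GMP, a log2 difference of -1.28. The similar Snora73b from the same host had 24.36 and 23.92 CPM in CMP and 29.01 and 25.37 CPM in GMP and was not called. The U14 snoRNAs Snord14a, Snord14e and Snord14c fell by 0.81, 0.90 and 0.31 on the log2 scale. Snord14c, the most abundant of them, had 799.7 and 800.1 CPM in CMP and 1000 and 987.3 CPM in GMP. Snord14c lost its call under both other scalings and Snord14a in the 4 libraries alone (adjusted p = 0.0612), and Snord14d was not called (-0.25). The U3 intervals, several of which are near-identical copies, had log2 differences of -0.27 to 0.07, and none was called, although Rnu3b3 ENSMUSG00000104856 was called higher without GMP library 2 at 0.50. Snord22 and Snora62 were not called either.

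Of 104 tested H/ACA snoRNAs 5 were higher in CMP and 14 lower, or 4.81% and 13.5%, against 9.75% and 15.8% of all tested features. Without CMP library 1 there were 7 falls and without GMP library 1 there were 6. Their median log2 difference was -0.21, and they held 1.14% and 1.13% of counts in CMP and 1.05% and 1.29% in GMP, which overlap. The interval Snora43 ENSMUSG00000097052 (chromosome 2, minus strand, 26637847 to 26637985), which overlaps a similar Snora43 interval, had 64.65 and 70.76 CPM in CMP and 278.2 and 324.6 CPM in GMP. Its log2 difference was -2.15 ± 0.14 (SE, adjusted p = 7.55e-07), the lowest of a named H/ACA snoRNA. MEP averaged 590 CPM and CLP 189.6 CPM. Snora61 in Snhg12 had 96.41 and 105.7 CPM in CMP and 129.8 and 159 CPM in GMP, fell by 0.51 on the log2 scale and lost the call in the 4 libraries alone. Another 3 scarcer members were added after their values were seen. Snora3 in Rpl27a fell by 0.84, with 25.82 and 32.71 CPM in CMP and 59.38 and 45.42 CPM in GMP. Gm24029 in Eif4a1 rose by 0.63, with 37.06 and 39.32 CPM in CMP and 28.19 and 21.19 CPM in GMP, and Gm22676 in Aven rose by 1.02, with 6.247 and 5.828 CPM in CMP and 3.132 and 2.791 CPM in GMP. In the Snora43 sequence the central ANANNA box and the terminal ACA are in capitals.
Snora43: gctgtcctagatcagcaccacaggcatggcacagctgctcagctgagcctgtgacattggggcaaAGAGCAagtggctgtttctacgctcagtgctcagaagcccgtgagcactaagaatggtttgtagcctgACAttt

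Spliceosomal small nuclear RNAs (snRNAs), which recognise and cut introns, were a smaller part of the CMP libraries, at 0.353% and 0.352% of counts, against 0.474% and 0.468% in GMP. Of 118 tested intervals 3 rose and 29 fell, or 2.54% and 24.6%, against 9.75% and 15.8% of all tested features, with a median log2 difference of -0.50. Without CMP library 1 there were 17 falls and without CMP library 2 there were 19. U2, which pairs with the branch point of introns, held 1241 and 1265 CPM in CMP and 2555 and 2355 CPM in GMP, 1.96 times as much on average in GMP. Of its 15 tested intervals 12 fell and none rose, and these are 12 of the 29 falls among snRNAs. Gm23849 had 153.3 and 162 CPM in CMP and 372.1 and 336.6 CPM in GMP (log2 difference -1.17), and Rnu2-10 had 161.1 and 166.9 CPM in CMP and 359.3 and 329.3 CPM in GMP. The scarcer Gm22973 had 15.41 and 15.74 CPM in CMP and 35.75 and 33.49 CPM in GMP (-1.15). Most U2 intervals have 9 to 12 near-identical copies, so these are 1 family total rather than 12 separate results. The share of 24.6% given above for snRNA falls counts those copies separately. MEP held 2212 CPM of U2 and CLP 1861 CPM, between CMP and GMP.

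Among the other families U1, which pairs with the start of introns, held 668.0 and 717.4 CPM in CMP and 678.5 and 619.7 CPM in GMP, and the populations overlapped. Within it 2 of 23 intervals rose and 8 fell, or 8.7% and 34.8%, against 9.75% and 15.8% of all tested features. Under relative log expression 1 rose and 6 fell, and under library totals 5 rose and 6 fell. The abundant Gm23804 rose by 0.54 on the log2 scale, with 103 and 109.9 CPM in CMP and 78.45 and 67.68 CPM in GMP. The falls included the scarcer Gm22042, with 8.537 and 8.698 CPM in CMP and 16.34 and 19.35 CPM in GMP, and Rnu1b1. U5 held 590.9 and 589.9 CPM in CMP and 578.3 and 622.3 CPM in GMP, and none of 7 intervals was called. U6 intervals, 244 in the series, held 37.48 and 38.97 CPM in CMP and 53.80 and 55.06 CPM in GMP in all. Of 56 tested 3 were lower (5.36%, against 15.8% of all tested features) and none higher. The U7 snRNA, which acts on histone transcripts and not in splicing, fell by 0.43 on the log2 scale, with 234.9 and 240.7 CPM in CMP and 329.0 and 312.6 CPM in GMP over its 4 intervals. It lost that call under relative log expression. The largest called snRNA falls among intervals of at least 10 CPM were in 2 that matched none of the families compared. Those families were U1, U2, U5, U6, U7, U11 and U12, and U4 was not among them. Gm23744 had 12.91 and 13.40 CPM in CMP and 68.78 and 60.58 CPM in GMP (log2 difference -2.30), and Gm25106 had 6.455 and 5.828 CPM in CMP and 29.08 and 27.72 CPM in GMP (-2.21).

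**Figure D4:**
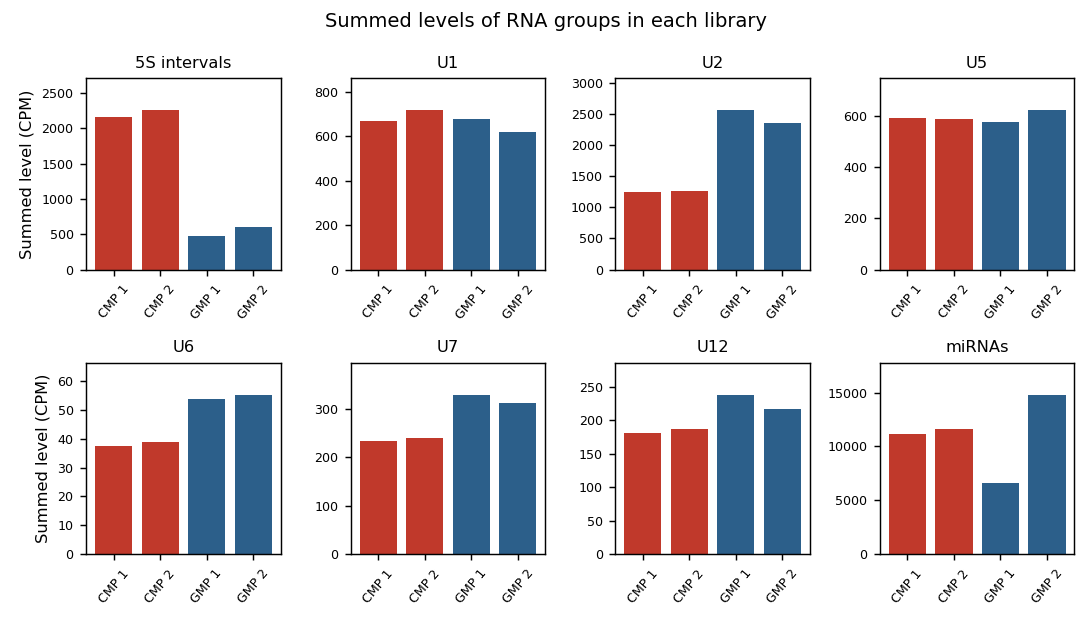
Summed levels in CPM of 8 RNA groups in each CMP library (red, left) and each GMP library (blue, right), on axes that start at 0. U2 is lower and the 5S intervals are higher in both CMP libraries than in both GMP libraries. U1, U5 and miRNAs overlap, and the 2 GMP bars of the miRNAs, at 6633 and 14770 CPM, stand on either side of the CMP bars.

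Mitochondrial transcripts were a small part of the libraries. Mitochondrial tRNAs held 0.0410% and 0.0401% of counts in CMP and 0.0294% and 0.0318% in GMP. Of 21 tested 3 rose and 2 fell (14.3% and 9.52%, against 9.75% and 15.8% of all features), with a median log2 difference of 0.07. The tRNA for valine, mt-Tv, had 24.78 and 22.35 CPM in CMP and 4.222 and 7.612 CPM in GMP, a log2 difference of 1.99 ± 0.27 (SE, adjusted p = 0.000193). The tRNA for glycine, mt-Tg, had 24.57 and 22.53 CPM in CMP and 9.806 and 11.35 CPM in GMP, a log2 difference of 1.15. The small ribosomal RNA mt-Rnr1, which ends where mt-Tv starts, had 139.9 and 133.3 CPM in CMP and 76.54 and 90.77 CPM in GMP, a log2 difference of 0.71 ± 0.13 (SE, adjusted p = 0.00194).

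Of 7 other housekeeping RNAs tested, 2 rose and 1 fell, with a median log2 difference of 0.20. That is 28.6% and 14.3%, against 9.75% and 15.8% of all tested features. Rn7s1, a copy of the RNA of the signal recognition particle, rose by 1.02 on the log2 scale, with 50.39 and 55.23 CPM in CMP and 26.97 and 25.12 CPM in GMP. The similar Rn7s2 had 39.77 and 44.27 CPM in CMP and 37.59 and 36.92 CPM in GMP and was not called. Rny1, a Y RNA bound by the Ro protein, rose by 0.69 on the log2 scale, with 61.43 and 58.89 CPM in CMP and 37.45 and 37.3 CPM in GMP. Rn7sk, which holds a transcription elongation factor inactive, had 90.99 and 95.77 CPM in CMP and 170.5 and 143.6 CPM in GMP, a log2 difference of -0.75 ± 0.10 (SE, adjusted p = 0.000152). The calls of Rny1 and Rn7sk were lost in the 4 libraries alone. Rny3, Terc, the telomerase RNA, and Vaultrc5 were not called. Gm22369, an interval that the annotation lists as a miRNA without a family name, had 14.26 and 13.53 CPM in CMP and 6.81 and 5.709 CPM in GMP (log2 difference 1.15, adjusted p = 0.00262).

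The 2 GMP libraries stood on opposite sides of CMP in miRNAs. All miRNAs together held 11170 and 11660 CPM in CMP, against 6633 and 14770 CPM in GMP. The gel was cut for longer inserts than mature miRNAs, and the counts do not show whether the reads came from mature or precursor forms. Of 201 tested miRNAs 17 rose and 3 fell, or 8.46% and 1.49%, against 9.75% and 15.8% of all tested features. The median log2 difference of the miRNAs was 0.17. The rises came to 5 without CMP library 1, 7 without CMP library 2 and 9 without GMP library 1. Without GMP library 1 that median was 0.00, and without GMP library 2 it was 0.97. Of 74 miRNAs with a mean of at least 10 CPM, 73 stood higher against GMP library 1 than against GMP library 2. When miRNAs were scaled and tested among themselves, a setting chosen after these values were seen, 48 rose and 33 fell of 203 tested. The spread used for the calls is estimated over all 8 populations, and the MEP libraries also differed in miRNAs (median log2 ratio 1.27). With the MEP and mature Erythroid libraries left out, a setting that was not planned, 39 miRNAs rose and 11 fell.

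**Figure D5:**
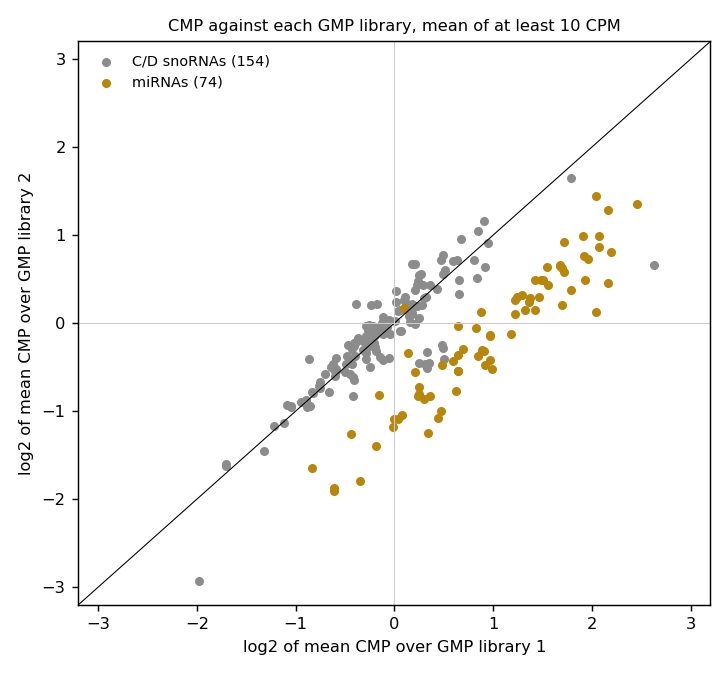
Log2 of the mean CMP level over GMP library 1 (horizontal axis) and over GMP library 2 (vertical axis) for 74 miRNAs (gold) and 154 C/D snoRNAs (grey) averaging 10 CPM or more. The black line marks equal values. C/D snoRNAs scatter along it, with medians of -0.16 and -0.13, while 73 of the miRNAs lie below it, with medians of 0.97 and -0.09.

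Mirlet7d, Mir150, Mir99a and Mir222 were the largest called rises of miRNAs over 10 CPM, and in each both CMP values were above both GMP values. Mirlet7d, of the let-7 family that increases in many cell types as they mature, had 31.03 and 27.31 CPM in CMP and 5.311 and 11.42 CPM in GMP, a log2 difference of 1.80 ± 0.56 (SE, adjusted p = 0.0377). Mir150, abundant in mature lymphocytes, had 31.86 and 32.18 CPM in CMP and 7.763 and 11.80 CPM in GMP, a log2 difference of 1.71 ± 0.48 (SE, adjusted p = 0.0231). Mir222 had 42.89 and 49.84 CPM in CMP and 11.03 and 23.28 CPM in GMP, a log2 difference of 1.43 (unadjusted p = 0.0127), and its adjusted p lay just under the threshold. All 4 lost their calls without either CMP library and without GMP library 1. The 10 tested let-7 members had log2 differences of 0.12 to 1.80 with a median of 0.91, but 1 was called. That median was 0.65 without GMP library 1 and 1.5 without GMP library 2. With the MEP and Erythroid libraries left out 6 let-7 members were called higher. When miRNAs were tested among themselves 7 were called higher, and the differences of Mirlet7f-1 and Mirlet7g were -0.16 and -0.08. The interval of Mir451a and Mir451b, which lie on opposite strands, had 37.48 and 36.45 CPM in CMP and 66.05 and 115.7 CPM in GMP, a log2 difference of -1.30 ± 0.28 (SE, adjusted p = 0.00509). miR-451a is known from red cell precursors.

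Members of the Mir99 family, enriched in blood stem and progenitor cells, had 2 called rises. Mir99a had 15.83 and 17.05 CPM in CMP and 3.677 and 6.724 CPM in GMP, a log2 difference of 1.66 ± 0.45 (SE, adjusted p = 0.0197). Mir99b had 6.039 and 5.654 CPM in CMP and 0.8171 and 1.269 CPM in GMP, a log2 difference of 2.47 ± 0.43 (SE, adjusted p = 0.00135). Mir100, which was added after its values were seen, had 10 and 14 counts in CMP and 0 and 2 counts in GMP. Another pair chosen that way was Mir128-1 and Mir128-2, which encode the same mature miR-128-3p. Mir128-1 had 8.121 and 10.96 CPM in CMP and 1.226 and 0.8881 CPM in GMP (log2 difference 3.18, adjusted p = 0.00439), and Mir128-2 had 12 and 22 counts in CMP and 0 and 2 counts in GMP. The mature sequences are shown with the seed in capitals, since the first 3 share theirs.
miR-99a-5p: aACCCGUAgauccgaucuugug
miR-99b-5p: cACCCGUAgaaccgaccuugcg
miR-100-5p: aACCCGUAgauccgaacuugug
let-7d-5p: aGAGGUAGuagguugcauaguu
miR-128-3p: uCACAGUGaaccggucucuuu
miR-451a: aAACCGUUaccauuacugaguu

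MiRNAs known from blood lineages were read as lists, and Myloid cells, as the labels spell the mature population, are given beside 3 of them. Of 7 tested stem and progenitor markers 2 rose (28.6%) and none fell, against 9.75% and 15.8% of all tested features. Their log2 differences were 0.73 to 4.27, with a median of 1.85. Their sum was 431.7 and 456.1 CPM in CMP and 162.9 and 348.0 CPM in GMP, most of it Mir10a, which had 386.1 and 407.0 CPM in CMP and 152.9 and 324.9 CPM in GMP and was not called. Mir126a had 17.70 and 18.79 CPM in CMP and 4.086 and 13.32 CPM in GMP, and Mir196b had 2.499 and 3.653 CPM in CMP and 0.8171 and 0.7612 CPM in GMP, and neither was called. Mir125a and Mir125b-1, both under 2 CPM in every library, were not called either. Myloid cells averaged 921.9 CPM over this list, more than CMP. The myeloid markers Mir223 and Mir142 summed to 258.0 and 258.1 CPM in CMP and 289.3 and 482.1 CPM in GMP, and neither was called (log2 differences -0.52 and -1.25). Myloid cells averaged 1082 CPM. Erythroid markers summed to 42.27 and 41.32 CPM in CMP and 67.82 and 120.6 CPM in GMP, with the Mir451 interval lower. Mir144 was not called (log2 difference -1.12), nor was Mir486, which stood the other way with 3.748 and 3.827 CPM in CMP and 0.4086 and 1.776 CPM in GMP. Lymphoid markers summed to 177.2 and 190.8 CPM in CMP and 61.56 and 137.1 CPM in GMP, with 1 of 7, Mir150, higher, and the Mir181 members, with a median log2 difference of 0.77, not called. Mir342 and Mir155 were not called (-0.06 and 0.12), and Myloid cells averaged 208.4 CPM over the list. With the MEP and Erythroid libraries left out, 3 stem and progenitor markers and 3 lymphoid markers were called higher and both myeloid markers lower. Of the erythroid markers 1 was called higher in that fit and 1 lower. When miRNAs were tested among themselves, 48 of all 203 tested were called higher and 33 lower. In that setting 6 of the 7 stem and progenitor markers and 4 of the 7 lymphoid markers were called higher. Mir223 and Mir142 were then called lower (adjusted p = 1.55e-06 and 3.94e-08), as were Mir144 and the Mir451 interval, and Mir486 was called higher. That scaling put the median log2 difference of the miRNAs at -0.06, so its calls are relative to other miRNAs. Epithelial markers summed to 3.956 and 4.697 CPM in CMP and 3.132 and 7.866 CPM in GMP, with Mir141 and Mir429 at 0 in all 4 libraries and Mir200a, Mir200b and Mir200c not called. Stromal markers summed to under 2 CPM in every library, and Mir199a-2 was not called (log2 difference 2.31). Of the brain snoRNAs of Snhg14, the 2 intervals with Snord116 in their name held 2 counts in GMP library 2 and none in the other 3 libraries. Unnamed C/D intervals of the same host held a few more, with 2 and 4 counts in CMP and 12 and 0 in GMP. The part of other cells in the results was not tested.

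The study's title names snoRNAs of the Dlk1-Gtl2 locus, an imprinted region of chromosome 12. Their summed level was 1.95 and 2.18 CPM of library totals in CMP and 0.424 and 0.413 CPM in GMP. Pooled over libraries this was 30 read pairs or 2.11 CPM in CMP (95% exact Poisson interval 1.42 to 3.01) and 6 read pairs or 0.418 CPM in GMP (0.154 to 0.911), and the intervals cover counting error only. CMP had the highest pooled level of the 8 populations, with MEP next at 1.03 CPM (0.626 to 1.58) and overlapping it. None of the 8 snoRNAs had enough counts to be tested. In CMP library 2 Gm26922 held 26 of the 44 counts, and it was at 0 in both GMP libraries. The 10 listed miRNAs of the region held 2 counts in CMP and 2 in GMP.

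Set beside the other progenitors, CMP rather than GMP was most often at the end of the range. Of the 73 features higher in CMP than in GMP, CMP had the highest mean of CMP, GMP, MEP and CLP for 70, and GMP had the lowest for 43. Of the 118 lower ones, CMP had the lowest mean for 109 and GMP the highest for 74. Choosing features for a difference between CMP and GMP favours both ends, so these counts describe the features without a test. For the 29 C/D rises the counts were 28 and 21, and for the 58 C/D falls they were 54 and 29.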

How the data were processed

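Small non-coding RNA was sequenced in 16 libraries, 2 for each of 8 sorted populations. The deposited files hold raw counts of reads per annotated interval, and an interval that a file does not list was taken as 0. Per the submitters' processing notes, Trimmomatic 0.38, Bowtie2 2.3.4.1 and the GRCm38 genome were used. The counting program, its annotation and its use of strand are not given in the sources used here, so reads of overlapping or antisense intervals cannot be told apart. In every library 89.0% to 93.2% of values were even, as when both mates of a pair are counted. Intervals were named by exact coordinates in GENCODE M21 (1884 of 1885, and the 45S interval by its accession). SnoRNAs without an informative name were classed by box sequences and length. On intervals classed by name, the rule placed 76 of 96 C/D and 32 of 41 H/ACA snoRNAs in their own class and none in the other.

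The test was edgeR's quasi-likelihood test (edgeR 4.0.16, R 4.3.3) on all 16 libraries, with a mean for each population, TMM scaling, and low counts removed by filterByExpr (minimum count 10, by population). DESeq2 1.42.0 and limma 3.58.1 (voom with sample weights) were alternatives. Standard errors (SE) are the log2 difference over the square root of F. Similar copies (at least 95% identity over 90% of the length) and snRNA families (80% and 80%) came from blastn 2.17.0. Sequences of snoRNAs are from GENCODE M21 on GRCm38, and those of mature miRNAs from RefSeq on GRCm38.p6.

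The text names the 12 largest called rises and falls among features averaging 10 CPM or more whose libraries do not overlap, the 5 largest of each within C/D and H/ACA snoRNAs of at least 100 CPM, the 3 most abundant, and tested rRNA-processing, housekeeping and marker RNAs, with U3 copies and the Mir181 members given as groups. A snoRNA that this rule names is not reported here. Members of host genes and snRNA families given as examples were picked with their values in view. The comparison and lists were chosen with earlier results of these data known.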

Additional observations from a re-analysis of the deposited data

How the results depend on the processing

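Of 41 called features named by rule, 31 kept direction and call under all 20 alternatives in which they could be fitted. Against 191 calls, separate fits gave 113 with the CMP and GMP libraries alone (88 shared), 104 of 450 features without similar copies or overlaps, and 81 of 203 with named miRNAs alone (18 shared). A replicate block in the 4 libraries gave 90 higher and 52 lower. With the MEP and Erythroid libraries left out there were 100 higher and 130 lower. Leaving out 1 library gave 115 to 168 calls. Deviations of library 1 from the mean of its population had a correlation of -0.03 between CMP and GMP over 749 features. Over 28 pairs of populations it ran from -0.72 to 0.59. With 2 libraries per population this cannot show whether the library numbers pair CMP with GMP. A replicate block in the fit of all 16 libraries gave 184 calls, 71 higher and 113 lower. Relative log expression gave 71 higher and 84 lower, and DESeq2 95 and 98.

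Shares without the 45S interval moved the log2 difference to -0.01 for C/D snoRNAs, 0.58 for mitochondrial rRNA, 0.13 for other RNAs and -0.34 for snRNAs. The Dlk1-Gtl2 log2 ratio was 2.18 over TMM-scaled sizes and 2.22 to 2.38 without 1 library.

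Gm26224 changed sign and was called under library totals (0.10) and without GMP library 1, with a range of -0.11 to 0.23 without 1 library. So did Rnu3b3 ENSMUSG00000104856 without GMP library 2, with a range of -0.24 to 0.50. The cause was not tested.

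Medians of lists, less that of all features, moved by less than the spread between libraries under both other scalings. Without 1 library they ranged from -0.24 to 0.02 (C/D), -0.33 to -0.02 (H/ACA), -0.25 to -0.09 (rRNA processing), -0.26 to 0.08 (Gas5), -0.55 to -0.24 (Snhg1), 0.23 to 0.45 (Nop56), -0.84 to -0.42 (Eif4a2), -0.35 to -0.01 (ribosomal protein hosts), -0.60 to -0.28 (U1), -1.07 to -0.76 (U2), -0.52 to -0.43 (U6), 0.10 to 0.25 (mitochondrial tRNAs) and 0.15 to 0.47 (housekeeping). For miRNAs they were -0.01 to 0.89, for Mir181 0.41 to 1.46, for stem and progenitor markers 1.46 to 2.08 and for lymphoid markers 0.45 to 1.46. Low counts kept the Dlk1-Gtl2 snoRNAs, 188 of 244 U6 intervals and 43 of 147 H/ACA intervals out of the test.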
